A study of Mus musculus with 6 samples.

Results

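The genes described here make up the protein-folding and quality-control machinery of the endoplasmic reticulum (ER) together with the sensors of the unfolded protein response (UPR). They were chosen by symbol as 36 of the 42256 genes in the count table: 8 chaperones, 6 co-chaperones and exchange factors of BiP, 9 disulphide isomerases and relatives, 9 genes of ER-associated degradation, and the 3 UPR sensors with the transcription factor gene Xbp1. Of these, 35 passed the filter on low counts and were tested. Derl3, a derlin of the degradation pathway, did not pass, with 12, 1 and 4 counts in the wild-type (WT) libraries and 12, 10 and 5 in the knockout (KO) libraries.

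The libraries come from bone marrow-derived macrophages, cells obtained by culturing marrow progenitors with the macrophage growth factor that L929 fibroblasts secrete into their medium. Marrow was taken from adult male mice on a background given as Mixed; 129S1/Sv x C57BL/6, with the genotype CDH11+/+ (WT, 3 libraries) or CDH11-/- (KO, 3 libraries). CDH11 encodes cadherin-11, a cell-cell adhesion protein, and the study sets its loss in the context of atherosclerosis. All cultures were grown for 7 days with 20% L929-conditioned medium and 10% FBS and received no treatment. The design text of the series mentions 4 KO animals, and 3 KO libraries were analysed here. Labels name no animal for a library, so p-values reflect only how far these libraries spread, which may be partly technical.

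Proteins that enter the ER are held by chaperones, given sugar chains and disulphide bonds, and sent back to the cytosol for destruction when they fail to fold. When unfolded proteins build up, the membrane sensors IRE1, PERK and ATF6 are released from the chaperone BiP: IRE1 removes an intron from Xbp1 mRNA, PERK phosphorylates the initiation factor eIF2 and thereby favours translation of ATF4, and ATF6 is cut to release a transcription factor. XBP1 and ATF6 then raise transcription of chaperone, isomerase and degradation genes. Macrophages depend on this system to make lysosomal enzymes, surface receptors and cytokines, and in atherosclerosis it has been studied in lipid-loaded cells. Gene counts show transcript abundance; they do not show Xbp1 splicing, phosphorylation of sensors or ATF6 cleavage.

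Depth was 27170943 to 37113689 counts per library. Cdh11 itself was near the limit of detection, with 6, 11 and 6 counts in WT and 6, 4 and 5 in KO, so it does not check the genotype labels. All 7 macrophage markers were detected and tested: Cd68 rose (log2 fold change 0.32), Csf1r (-0.70) and Lyz2 (-0.57) fell, and Adgre1, Itgam, Mertk and Fcgr1 were not called. Their summed level was 30500 to 33200 CPM in WT and 19100 to 24900 CPM in KO. Most of that sum was Lyz2, with a mean of 23638 CPM in WT and 15915 CPM in KO. CPM are counts relative to the TMM-scaled library total, and a gene is called here when its p from the quasi-likelihood test of edgeR, adjusted by Benjamini-Hochberg over the 12862 genes tested, was under 0.05. By that rule 35.2% of all tested genes were called, 18.5% higher and 16.8% lower in KO. Of all calls 52.4% were higher, a share that became 64.4% with upper-quartile scaling. Among markers of other cells, the immunoglobulin light chain gene Igkc was highest in KO 2, at 9.99 CPM. It was at 1.51 and 0.897 CPM in KO 1 and KO 3 and 0.161 to 0.302 CPM in WT. Not all such markers did so: the heavy chain gene Ighm was lowest in KO 2 (45.3 CPM). The neutrophil marker S100a8 was highest in KO 3 (22.6 CPM) and at 8.17 CPM in KO 2.

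The UPR is also written into promoters. The ER stress response element (ERSE), defined from the promoters of chaperone genes of this kind, consists of CCAAT and CCACG with 9 bases of any kind between them. On either strand it was found in 9 of the 30 members with a RefSeq promoter window (250 bases before to 50 after the start, GRCm38.p6) and in 0.119% of the 32851 windows of that table. Since the element was derived from such genes, the match describes the promoters and is no site of measured binding. The windows below are shown because members with the same element in their promoter gave different results in KO. The stretch around each element is printed along the gene's own strand, with the element in capitals and 20 bases on each side. Starts are those of RefSeq, which can differ from the GENCODE gene bounds given with the values: the Hspa5 stretch lies before the RefSeq start but inside the GENCODE bounds of the gene.

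Hspa5 (chr2:34772005-34772063, plus strand): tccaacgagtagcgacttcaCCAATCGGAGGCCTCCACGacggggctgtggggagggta
Hsp90b1 (chr10:86705618-86705676, minus strand): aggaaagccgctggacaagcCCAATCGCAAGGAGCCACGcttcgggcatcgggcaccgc
Hsp90b1, the other copy (chr10:86705513-86705571, minus strand): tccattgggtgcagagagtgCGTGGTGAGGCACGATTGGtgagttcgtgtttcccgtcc
Calr (chr8:84847055-84847113, minus strand): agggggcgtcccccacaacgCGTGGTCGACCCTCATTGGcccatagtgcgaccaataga
Creld2 (chr15:88819500-88819558, plus strand): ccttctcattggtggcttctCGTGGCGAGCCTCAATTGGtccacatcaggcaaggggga
Pdia6 (chr12:17266471-17266529, plus strand): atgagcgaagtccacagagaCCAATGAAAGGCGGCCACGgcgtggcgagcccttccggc
Canx (chr11:50325780-50325838, minus strand): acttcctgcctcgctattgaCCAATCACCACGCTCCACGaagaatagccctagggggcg
Dnajc3 (chr14:118937807-118937865, plus strand): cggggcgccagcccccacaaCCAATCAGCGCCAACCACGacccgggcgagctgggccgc
Syvn1 (chr19:6046512-6046570, plus strand): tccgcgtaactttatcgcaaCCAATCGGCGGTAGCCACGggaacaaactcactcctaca

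In Calr, Creld2 and the other copy of Hsp90b1 the element reads on the opposite strand, from CGTGG to ATTGG. Of the 9 members with an ERSE, 4 rose in KO (Hsp90b1, Calr, Creld2 and Pdia6) and none was called lower. Another 4 were not called (Hspa5, Canx, Dnajc3 and Syvn1), and Derl3 was not tested. Called higher were 37.1% of the 35 members tested and 18.5% of all genes tested. A second element, ERSE-II, which is ATTGG and CCACG with 1 base of any kind between them, was found on either strand in 2 members and in 0.0365% of all windows. These were Dnajb11, which rose, and Herpud1, which fell, and no member's window held both elements. The Herpud1 stretch is shown because this gene had the largest fall of all members.

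Herpud1 (chr8:94386357-94386407, plus strand): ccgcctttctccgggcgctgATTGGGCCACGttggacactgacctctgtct

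The Herpud1 element began 52 bases before the start. Its window also held TGATGCAA, the core letters of sites read by ATF4 dimers, on the opposite strand, which 0.895% of all windows held on either strand and no other member did. The XBP1-type core TGACGTGG was found in the windows of Txndc5 and Txndc11 only, neither of them called, and in 0.676% of all windows.

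In KO macrophages 13 transcripts of the folding machinery rose, while those of the sensors IRE1 and PERK and of the degradation component Herpud1 fell. Of the 35 members tested, 13 rose and 3 fell, or 45.7% called beside 35.2% of all genes tested. The members' 37.1% higher and 8.57% lower stand beside 18.5% higher and 16.8% lower over all genes. All 13 that rose belong to the folding roles, in which 13 of 23 genes rose and none fell (median log2 fold change 0.27). None of the 12 tested genes of degradation and the sensors rose and 3 fell, with a median of -0.06, beside a median of 0.00 over all genes tested. The members together took 0.724, 0.705 and 0.702% of all counts in WT and 0.791, 0.868 and 0.800% in KO. Every KO library thus gave a larger share of its counts to these genes as a sum than any WT library. The 2 parts of the sum went opposite ways. The folding roles took 0.563, 0.545 and 0.535% in WT and 0.638, 0.716 and 0.648% in KO. Degradation and sensors took 0.162, 0.160 and 0.166% in WT and 0.153, 0.152 and 0.152% in KO. In RNA from a whole culture, a change in how many cells of a type are present cannot be told apart from a change in RNA per cell.

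**Figure D1:**
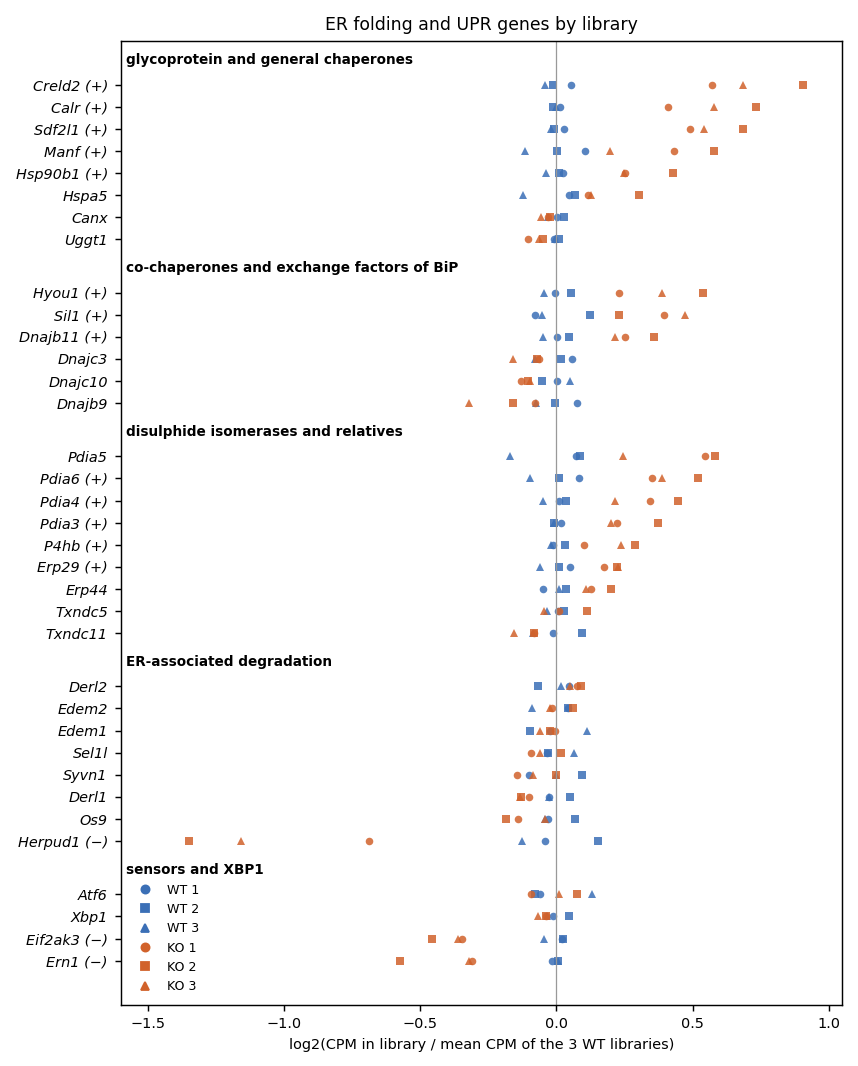
Level of the 35 tested members in each library as log2 of CPM over the mean CPM of the 3 WT libraries, by role; circles, squares and triangles are libraries 1, 2 and 3, blue for WT and orange for KO, and a plus or minus after the symbol marks genes called higher or lower. Orange points lie to the right for 13 folding genes and to the left for Herpud1, Eif2ak3 and Ern1, and KO 2 is farthest from WT in 11 of the 13 and in all 3.

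The general and glycoprotein chaperones gave the largest rises. Of 8 genes, 5 rose (62.5%, beside 18.5% of all genes tested) and none was called lower, with a median log2 fold change of 0.36. Creld2 (ENSMUSG00000023272, GRCm38 chromosome 15, 88819646 to 88826683, plus strand), an ER-resident protein induced by ER stress, was at 24.6, 23.5 and 23.0 CPM in WT and 35.1, 44.3 and 38.1 CPM in KO. It rose 1.65-fold (log2 fold change 0.73, SE 0.09, adjusted p = 0.00499, edgeR), the largest rise among the members. Calr (ENSMUSG00000003814, chromosome 8, 84841850 to 84846934, minus strand) encodes calreticulin, the soluble lectin chaperone that also buffers ER calcium. Calr was at 863, 848 and 854 CPM in WT and 1135, 1422 and 1277 CPM in KO. The 3 WT libraries lay close together and the lowest KO library was far above them. Calr rose 1.49-fold, by 0.58 on the log2 scale (SE 0.09, adjusted p = 0.00637, edgeR).

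Sdf2l1 (ENSMUSG00000022769, chromosome 16, 17130138 to 17132383, minus strand), a partner of the co-chaperone ERdj3 that keeps BiP clients soluble, was at 86.4, 84.1 and 83.4 CPM in WT and 119, 136 and 123 CPM in KO. Its log2 fold change of 0.57 (SE 0.07, adjusted p = 0.00459, edgeR) had the smallest adjusted p of all members. Manf, a BiP-binding protein of the ER lumen that is also secreted, was at 83.0, 77.3 and 71.3 CPM in WT and 104, 115 and 88.4 CPM in KO. Both groups of Manf libraries were spread, and the gap between them was small beside that of Sdf2l1. Manf rose 1.33-fold (log2 fold change 0.41, SE 0.11, adjusted p = 0.0231, edgeR). Hsp90b1 (ENSMUSG00000020048, chromosome 10, 86690209 to 86705509, minus strand), which encodes GRP94, the HSP90 of the ER and the chaperone of Toll-like receptors and integrins, was at 715, 707 and 684 CPM in WT and 836, 944 and 833 CPM in KO. It rose 1.24-fold (log2 fold change 0.31, SE 0.07, adjusted p = 0.0163, edgeR).

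Hspa5 (ENSMUSG00000026864, chromosome 2, 34771970 to 34777547, plus strand) encodes BiP, the central HSP70 chaperone of the ER and the usual marker of the UPR. Hspa5 was at 838, 852 and 745 CPM in WT and 879.5, 1001 and 886 CPM in KO. The groups did not overlap, but WT 3 lay well below the other WT libraries and KO 2 well above the other KO libraries. The log2 fold change of 0.18 (SE 0.08) did not pass the test (adjusted p = 0.122, edgeR), nor did it under any of the 18 alternatives tried, in which it ranged from 0.12 to 0.24. Calnexin (Canx), the membrane-bound relative of calreticulin, had a log2 fold change of -0.04, and Uggt1, the enzyme that re-tags unfolded glycoproteins for both lectins, one of -0.07. Neither was called. Counted per exonic base, a ratio that no scaling of libraries affects and that was chosen after the values were seen, calreticulin stood to calnexin at 2.32, 2.23 and 2.35 in WT and 3.11, 3.89 and 3.57 in KO.

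**Figure D2:**
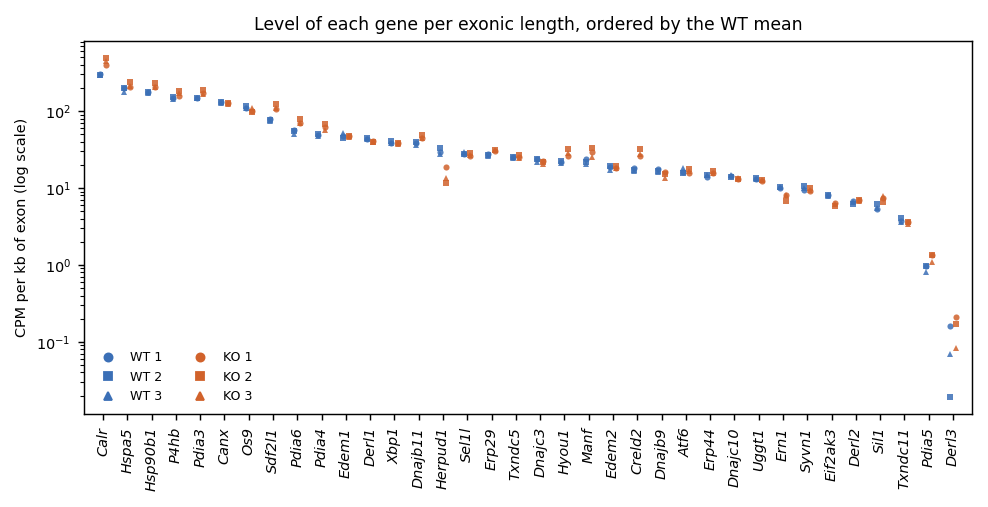
CPM per kb of exon (log scale) for the 36 members, ordered by the WT mean; each point is a library, blue for WT and orange for KO, with symbols for libraries 1 to 3. Calr leads in both genotypes, the sensors Ern1 and Eif2ak3 lie in the lower part of the order, and Derl3 is last.

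Scaled for exonic length, Calr was the most abundant member in WT at 297 CPM per kb, followed by Hspa5 at 192 and Hsp90b1 at 174 CPM per kb. P4hb and Pdia3 came next, both at 147 CPM per kb. The length is the union of all annotated exons, so the order depends on the annotation and not only on the main transcript of each gene. In KO the level of Calr was 444 CPM per kb, and Hspa5 and Hsp90b1 were at 218 and 216 CPM per kb. In WT the sensors were at 16.7 (Atf6), 10.1 (Ern1) and 8.06 CPM per kb (Eif2ak3), near the lowest chaperone genes, Creld2 at 17.3 and Uggt1 at 13.2 CPM per kb. Pdia5 (0.911 CPM per kb) and Derl3 (0.0831 CPM per kb) closed the order. Sdf2l1 and Creld2, which with Calr had the largest rises among the called members, were at 76.4 and 17.3 CPM per kb in WT.

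BiP works through co-chaperones of the DnaJ family, which bring clients and stimulate its ATPase, and through exchange factors, which release ADP. Of 6 such genes 3 rose and none was called lower, with a median log2 fold change of 0.09. Over all genes tested, 18.5% were called higher and 16.8% lower. Both exchange factors rose. Hyou1, which encodes GRP170, was at 158, 164 and 154 CPM in WT and 186, 231 and 208 CPM in KO (log2 fold change 0.39, SE 0.08, adjusted p = 0.0133, edgeR). Sil1, the other exchange factor, was at 18.4, 21.2 and 18.8 CPM in WT and 25.6, 22.8 and 27.0 CPM in KO (log2 fold change 0.37, SE 0.09, adjusted p = 0.019, edgeR). In Sil1, unlike in most members, KO 2 was the lowest KO library. Dnajb11, which encodes ERdj3, the DnaJ partner of BiP for nascent secretory proteins, was at 123, 127 and 119 CPM in WT and 146, 157 and 143 CPM in KO. It rose 1.21-fold (log2 fold change 0.28, SE 0.06, adjusted p = 0.0143, edgeR). The other DnaJ genes had negative values and were not called: -0.18 for Dnajb9 (ERdj4, an XBP1 target that represses IRE1), -0.11 for Dnajc10 (a reductase that serves degradation) and -0.10 for Dnajc3 (p58IPK, an inhibitor of PERK).

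Disulphide isomerases make and rearrange the cysteine bridges of secreted and membrane proteins. Of 9 genes 5 rose (55.6%, beside 18.5% of all genes tested) and none was called lower, with a median log2 fold change of 0.21. Pdia6 (ENSMUSG00000020571, chromosome 12, 17266545 to 17284770, plus strand), which encodes P5, an isomerase that associates with BiP and acts on IRE1, was at 215, 205 and 189.8 CPM in WT and 259, 291 and 266 CPM in KO. It rose 1.34-fold (log2 fold change 0.42, SE 0.07, adjusted p = 0.00766, edgeR), the largest rise of this role. Pdia4, which encodes ERp72, was at 119, 121 and 114 CPM in WT and 149.9, 161 and 137 CPM in KO, a rise of 0.34 on the log2 scale (SE 0.07, adjusted p = 0.0123, edgeR). Pdia3, which encodes ERp57, the isomerase that works with calreticulin and calnexin, was at 466, 458 and 458 CPM in WT and 538, 597 and 529 CPM in KO. It rose 1.20-fold (log2 fold change 0.27, SE 0.07, adjusted p = 0.0205, edgeR).

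The smallest rises among the isomerases were those of P4hb and Erp29. P4hb, the archetypal protein disulphide isomerase, was at 417, 431 and 415 CPM in WT and 452, 514 and 496 CPM in KO (1.16-fold, adjusted p = 0.0443, edgeR). Erp29, a relative without the active-site cysteine pair that escorts secretory proteins, was at 253, 247 and 235 CPM in WT and 276, 286 and 286 CPM in KO (1.16-fold, adjusted p = 0.0271, edgeR). The groups did not overlap in either gene, and in P4hb the gap between them was smaller than the range of the KO libraries. The remaining 4 were not called: Pdia5 at a log2 fold change of 0.46, Erp44, which retrieves unassembled proteins from the Golgi, at 0.15, Txndc5 at 0.03 and Txndc11 at -0.11. Pdia5, the least abundant of them at 2.24 to 3.78 CPM, had the largest value of this role but an SE of 0.17 and an adjusted p of 0.0683 (edgeR).

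ER-associated degradation recognises misfolded proteins, moves them through the membrane around the ligase HRD1 and hands them to the proteasome. Of the 8 tested genes 1 fell and none rose (median log2 fold change -0.06). The 12.5% called lower stand beside 16.8% of all genes tested. Herpud1 (ENSMUSG00000031770, chromosome 8, 94386438 to 94395377, plus strand), which encodes HERP, a short-lived membrane protein that assembles the HRD1 complex and is among the most inducible UPR targets, was at 68.0, 77.9 and 64.1 CPM in WT and 43.4, 27.5 and 31.3 CPM in KO. The highest KO library stayed below the lowest WT library, and KO 1 lay between KO 2 and WT. Herpud1 fell 2.05-fold, by 1.04 on the log2 scale (SE 0.17, adjusted p = 0.00841, edgeR), the largest change in either direction among the members. The gene overlaps an antisense gene model, Gm15890, and the strand setting of the counting is not given in the sources used here.

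The other 7 degradation genes had log2 fold changes of -0.12 to 0.07 and none was called. They were the ligase gene Syvn1 (HRD1, -0.08), its partner Sel1l (-0.05), the mannosidase-like factors Edem1 (-0.03) and Edem2 (0.01), the channel proteins Derl1 (-0.12) and Derl2 (0.07), and the lectin Os9 (-0.12). Set against BiP, whose gene like Herpud1 is a standard UPR target, the ratio of counts per exonic base of Hspa5 to Herpud1 was 6.80, 6.03 and 6.41 in WT and 11.2, 20.1 and 15.6 in KO, a pair chosen after the values were seen.

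Transcripts of 2 of the 3 sensors fell, where 16.8% of all genes tested were called lower. Ern1 (ENSMUSG00000020715, chromosome 11, 106394650 to 106487852, minus strand), which encodes IRE1 alpha, was at 81.8, 83.1 and 83.1 CPM in WT and 66.7, 55.5 and 66.2 CPM in KO. The WT libraries were nearly equal and every KO library was lower. Ern1 fell 1.32-fold, by 0.40 on the log2 scale (SE 0.08, adjusted p = 0.0105, edgeR). Eif2ak3 (ENSMUSG00000031668, chromosome 6, 70844515 to 70905245, plus strand), which encodes PERK, was at 49.2, 49.4 and 47.1 CPM in WT and 38.2, 35.4 and 37.8 CPM in KO. The spread within each group was small, with an SD of 1.31 CPM in WT and 1.52 CPM in KO. Eif2ak3 fell 1.31-fold, by 0.39 on the log2 scale (SE 0.06, adjusted p = 0.0058, edgeR).

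Atf6, the gene of the third sensor, was at 147, 146 and 168 CPM in WT and 144, 162 and 155 CPM in KO. The groups overlapped and the log2 fold change was -0.00044 (SE 0.08, adjusted p = 0.997, edgeR). Xbp1, whose mRNA is the substrate of IRE1, was at 126, 131 and 124 CPM in WT and 124, 124 and 121 CPM in KO. The log2 fold change of Xbp1 was -0.05 (SE 0.05, adjusted p = 0.489, edgeR). Within the same libraries, Hsp90b1 per exonic base stood to Eif2ak3 at 21.7, 21.4 and 21.7 in WT and 32.7, 39.9 and 33.0 in KO, again a pair chosen after the values were seen.

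The genotypes did not overlap in 26 of the 35 members tested, beside 53.4% of all genes tested (27.0% higher and 26.4% lower in KO). Among the 26 were all 16 called members and 10 of the 19 that were not called. Of these 26 members 17 were higher and 9 lower in KO. KO 2 was the highest library in 11 of the 13 genes that rose and the lowest in all 3 that fell, and WT 3 was the lowest in 11 of the 13. Some markers of antibody-secreting cells, which carry much folding machinery, were also highest in KO 2. Igkc rose, and the antibody joining-chain gene Jchain was at 0, 0.0755 and 0.0345 CPM in WT and 0.281, 1.30 and 0.432 CPM in KO. Of 11 plasma cell and B cell markers 4 were tested, of which Igkc and Sdc1 rose and Ighm fell. The summed level of the 11 was 124 to 163 CPM in WT and 113 to 144 CPM in KO. That sum joins opposite changes: the mean of Ighm was 117 CPM in WT and 54.4 CPM in KO. For Sdc1 the means were 22.2 and 61.6 CPM. Of 4 osteoclast markers 3 were tested, Dcstamp and Ocstamp rose, the sum was 36.0 to 54.1 CPM in WT and 79.3 to 118 CPM in KO, and Calcr was at 0. The part of either in the ER results was not tested. Without KO 2 the log2 fold changes were 0.63 for Creld2, 0.50 for Calr, 0.52 for Sdf2l1, 0.37 for Pdia6, -0.91 for Herpud1, -0.31 for Ern1 and -0.36 for Eif2ak3, and all 7 genes were still called.

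**Figure D3:**
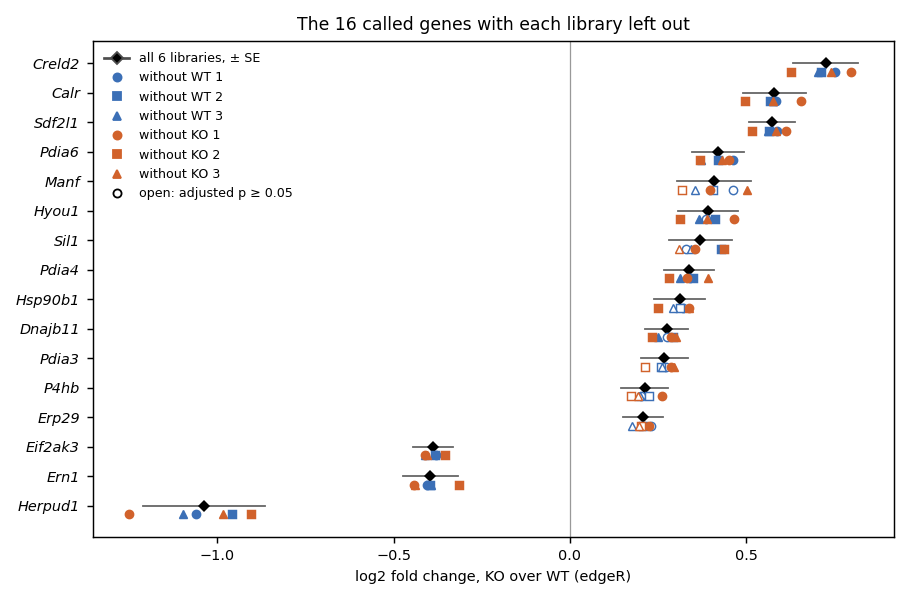
Log2 fold change of KO over WT for the 16 called members; black diamonds with bars are the value and SE from all 6 libraries, and coloured symbols the value with 1 library left out, open where the adjusted p was 0.05 or more. Creld2, Calr, Sdf2l1, Pdia6, Eif2ak3, Ern1 and Herpud1 have filled symbols throughout, and no symbol crosses 0.

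Creld2, Calr, Sdf2l1, Pdia6, Herpud1, Ern1 and Eif2ak3 were called under all 18 alternatives, and the other 9 called members lost the call under at least 1. Without WT 1 all 9 lost it (Hsp90b1, Manf, Hyou1, Sil1, Dnajb11, P4hb, Pdia3, Pdia4 and Erp29), and 4 members were then called higher, where all genes called higher numbered 1037 in place of 2375. Without WT 2 there were 8 and without WT 3 there were 7 members called higher. The number called lower stayed at 3 or 4 when any 1 library was left out. Hsp90b1, Manf, Sil1, Dnajb11, Pdia3, Pdia4, Pdia6, Erp29, Herpud1 and Eif2ak3 overlap other gene models with which counts may be shared. So do Atf3, Ddit3, Ppp1r15a, Sesn2, Ssr2, Srprb, Alg3, Rnf139, Ngly1, Ubac2 and Qsox2 among the neighbouring genes described next.

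The neighbouring functions of the ER were read from lists of further genes, tested in the same fit over all genes. Among 25 genes of N-glycosylation and the glucosidases, which add and trim the sugar chains that calreticulin and calnexin read, 15 rose and none fell (median log2 fold change 0.23). The 60.0% called, all of them higher, stand beside 35.2% called and 18.5% called higher over all genes tested. Alg3, a mannosyltransferase that extends the lipid-linked sugar, was at 6.86, 7.62 and 7.03 CPM in WT and 10.5, 12.9 and 11.9 CPM in KO (log2 fold change 0.72, adjusted p = 0.00615, edgeR). Alg8, a glucosyltransferase of the same pathway, rose by 0.66, Tusc3, a subunit of oligosaccharyltransferase, by 0.56, and Mogs, the first trimming glucosidase, by 0.54 on the log2 scale. Among 24 genes of the translocon, signal recognition particle and signal peptidase 7 rose and 1 fell (median 0.12), and the 33.3% called were close to the 35.2% of all genes tested. By direction, 29.2% were higher beside 18.5% of all genes tested, and 4.17% lower beside 16.8%. The largest changes were log2 fold changes of 0.64 for Sec61g, 0.36 for Ssr4, 0.33 for Srprb and 0.30 for Ssr2.

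Further degradation factors are the enzymes and adaptors around the HRD1 complex and other ER ligases. Of 24 genes 1 rose and 7 fell (median log2 fold change -0.03), and the 33.3% called were close to the 35.2% of all genes, with 29.2% lower beside 16.8%. The falls named by size were Ngly1, the cytosolic enzyme that strips sugar chains from retrotranslocated proteins (-0.44), the ligase gene Rnf139 (-0.35), the HRD1 cofactor gene Fam8a1 (-0.35) and Ubac2 (-0.27). Among 33 tested genes of other oxidases, isomerases and calcium-binding proteins 13 rose and 2 fell (45.5% called beside 35.2% of all genes, median 0.08). Of them 39.4% were higher beside 18.5% of all genes, and 6.06% lower beside 16.8%. The largest changes among the well-expressed ones were in the calcium-binding protein gene Rcn1 (0.69), the sulphydryl oxidase gene Qsox2 (0.58), the selenoprotein gene Selenom (0.54) and the calcium pump gene Atp2a3 (-0.55). Among 23 tested genes of COPII carriers and KDEL receptors 4 rose and 2 fell (median 0.05), and the 26.1% called were below the 35.2% of all genes. The rises were log2 fold changes of 0.34 for Sec23b, 0.32 for the cargo receptor gene Lman1, 0.27 for Tmed9 and 0.24 for Kdelr2, a receptor that returns chaperones to the ER. The falls, named after the values were seen, were -0.22 for Lman2 and -0.19 for Sec16a.

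**Figure D4:**
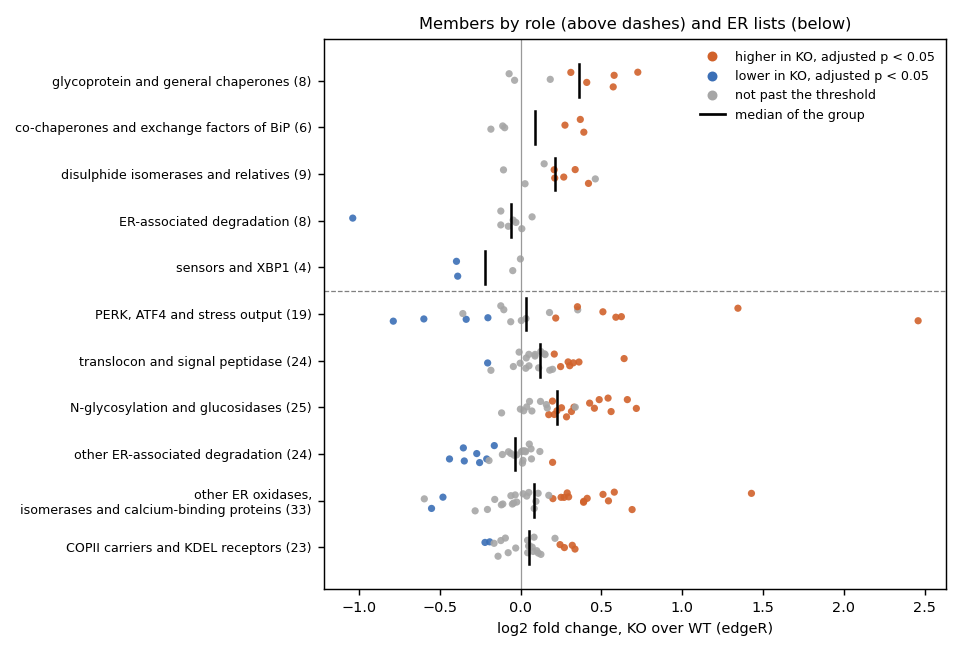
Log2 fold change of KO over WT for each tested gene, by role of the members (above the dashed line) and by neighbouring ER list (below it), with the number tested in brackets; orange and blue points are genes called higher and lower, grey points the others, and black bars the medians. The chaperones and N-glycosylation genes have medians of 0.36 and 0.23, the degradation lists medians of -0.06 and -0.03.

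A list of genes of PERK, ATF4 and other stress signalling, below called stress output, moved in both directions. Not all of its genes lie downstream of PERK: it also holds Eif2s1, Atf6b, Mbtps1 and Mbtps2, for example. Of 19 tested genes 7 rose and 4 fell (57.9% called beside 35.2% of all genes tested, median log2 fold change 0.03). The list had 36.8% higher beside 18.5% of all genes, and 21.1% lower beside 16.8%. Atf4, the transcription factor gene whose translation PERK and related kinases favour, was at 138, 149 and 133 CPM in WT and 207, 221 and 220.2 CPM in KO, a rise of 1.54-fold (adjusted p = 0.00417, edgeR). Trib3 and Chac1, which are among its known targets, were low in WT and higher in KO, while other genes of the list fell, as given below. Trib3, a pseudokinase gene, was at 3.35, 2.72 and 2.83 CPM in WT and 6.74, 7.14 and 8.81 CPM in KO (2.54-fold, adjusted p = 0.00484, edgeR). Chac1, which encodes a glutathione-degrading enzyme, was at 0.589, 0.642 and 0.379 CPM in WT and 2.56, 2.54 and 3.82 CPM in KO (5.50-fold, adjusted p = 0.00482, edgeR). Atf3, a stress-inducible transcription factor gene, rose 1.51-fold, from 245 ± 13.8 to 369 ± 28.7 CPM (SD, n = 3 in each genotype, adjusted p = 0.00528, edgeR).

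Ddit3, which encodes CHOP, the late effector of PERK signalling, was at 19.3, 22.7 and 16.7 CPM in WT and 25.4, 22.6 and 26.9 CPM in KO. The groups overlapped and the log2 fold change of 0.35 was not called (adjusted p = 0.0585, edgeR), although DESeq2 and limma-voom did call it; Ddit3 overlaps Mars. Other genes of this list fell. Ppp1r15a, which encodes GADD34, the phosphatase subunit that reverses the action of PERK on eIF2, was at 40.5, 47.4 and 34.7 CPM in WT and 27.4, 25.1 and 28.4 CPM in KO (log2 fold change -0.60, adjusted p = 0.0101, edgeR). Crebrf, a stress-regulated transcription factor gene, was at 92.3, 88.6 and 93.5 CPM in WT and 64.7, 42.5 and 51.9 CPM in KO (log2 fold change -0.79, adjusted p = 0.0093, edgeR). Creb3l2 and Sesn2, named after the values were seen, were also called lower, with log2 fold changes of -0.34 and -0.20. Among the neighbouring genes with a promoter window, TGATGCAA was found in those of Atf3, Chac1, Cnpy2 and Nupr1, and of the members in that of Herpud1 alone. Of these genes Atf3 and Chac1 rose, Herpud1 fell, and Cnpy2 and Nupr1 were not called. The log2 fold change of Nupr1 was -0.36 (adjusted p = 0.0831, edgeR).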

How the data were processed

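The authors deposited raw counts, whole numbers for each Ensembl gene in 1 column per library. DRAGEN, DESeq2 and mm10 are named, without version or role, in the submitters' processing notes. The kit was directional, per the labels' protocols. How reads were assigned to genes, with which annotation and strand setting, is not given in the sources used here. A normalized signal, which the authors deposited beside the counts, was used only as an alternative.

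Groups came from the genotype labels. Symbols, coordinates and exonic lengths (union of exons) came from GENCODE M21 for GRCm38, the assembly also called mm10. Counts were filtered with filterByExpr (minimum count 10), TMM-scaled and compared by the quasi-likelihood test of edgeR 4.0.16 (R 4.3.3) with robust estimation, two-sided, with Benjamini-Hochberg adjustment over the 12862 genes tested and a threshold of 0.05. The SE of a log2 fold change is its size divided by the square root of F. CPM use TMM-scaled totals, and the biological coefficient of variation was 0.121. Replicate libraries differed beyond sampling noise (chi-square per degree of freedom 12.57 to 52.6). The test was also run on simulated counts with the same coefficient of variation in every gene, which does not show its error rate on these data.

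The members and lists were chosen with earlier results of these data known, so lists are described by counts and medians without a test. Values per library are given for called members and for Hspa5, Hsp90b1, Xbp1, Atf6, Ern1 and Eif2ak3. From each neighbouring list up to 4 called genes with the largest change and a mean log2 CPM of at least 1 are named, and Atf4, Ddit3, Trib3, Atf3 and Chac1 in any case. The 18 alternatives were DESeq2 1.42.0, limma-voom (limma 3.58.1) with and without quality weights, other filters and scalings, limma on the deposited signal as log2 with a pseudocount of 1 or 10, and leaving out libraries. Promoter sequences are from RefSeq on GRCm38.p6, where 30 of the 36 members had a window.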

Additional observations from a re-analysis of the deposited data

How the results depend on the processing

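No paired analysis was possible because the labels give no replicate numbers; the numbers used here only name libraries. Precision is limited by 3 libraries per genotype. Leaving out 1 library at a time, all genes called higher numbered 1037 to 2791 and lower 942 to 2665, members called higher 4 to 13 and lower 3 to 4. In the same order of higher and lower, the ranges were 6 to 8 and 2 to 5 for stress output, 5 to 9 and 0 to 2 for the translocon, 9 to 17 and 0 to 0 for N-glycosylation, 0 to 1 and 2 to 8 for other degradation factors, 4 to 12 and 0 to 2 for other oxidases and isomerases, and 1 to 4 and 0 to 3 for COPII carriers.

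Without WT 2 and KO 2 together, 710 genes were called higher and 668 lower, and 5 members higher; 2 stress output genes were lower, 1 translocon gene higher and 0 lower, 5 N-glycosylation genes higher, 0 other degradation factors higher and 0 lower, 1 other oxidase or isomerase gene higher and 1 lower, and 0 COPII genes higher and 0 lower. With quality weights 2 translocon genes were lower, 2 other degradation factors higher, 5 other oxidases and isomerases lower and 4 COPII genes lower. On the deposited signal, with either pseudocount, 0 translocon genes were lower and 0 other degradation factors higher; the latter was also 0 without a filter on low counts. Upper-quartile scaling, which moved the median of all genes by 0.06, gave 2933 genes higher and 1621 lower, 15 members higher, 7 COPII genes higher and 0 lower, and 0 translocon genes lower. The cause was not tested.

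Changes of sign occurred in 7 members, none of them called in the main analysis. Canx was at 0.013 on the deposited signal with either pseudocount and 0.022 with upper-quartile scaling, which also gave 0.013 for Sel1l, 0.029 for Edem1, 0.059 for Atf6 and 0.011 for Xbp1. Txndc5 was at -0.014 with quality weights, -0.016 without KO 2 and -0.0032 without WT 2 and KO 2. With 1 library left out Edem1 ranged from -0.079 to 0.030, the latter without WT 3. Edem2 was at -0.014 on the deposited signal with either pseudocount, -0.015 with quality weights, -0.018 without KO 2 and -0.036 without WT 3, with a highest value of 0.027 among the libraries left out. Atf6 was at 0.00019 on the deposited signal with either pseudocount, 0.015 with library totals, 0.00060 with limma-voom, 0.020 with quality weights, 0.043 without KO 1 and 0.067 without WT 3, with a lowest value of -0.043 among the libraries left out. Of the 26 called neighbouring genes named by the stated rule, 10 were called under every alternative. These were Trib3, Crebrf, Atf4, Ppp1r15a, Srprb, Alg3, Alg8, Mogs, Atf3 and Chac1. The others lost the call under at least 1: Sec61g, for example, kept it under 14 of 18 and Selenom under 12. Lman2, Sec16a, Creb3l2 and Sesn2, named outside that rule, were not followed across the alternatives.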
